A study of Danio rerio with 6 samples.

Results

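Crystallins are the proteins that fill the fibre cells of the eye lens and give it its transparency and its refractive power. The alpha crystallins are small heat shock proteins that keep other lens proteins soluble. The beta crystallins are structural proteins that form oligomers and fall into an acidic group, beta A, and a basic group, beta B. The gamma crystallins are monomers of the same fold, and the gamma M class, rich in methionine, is abundant in the hard, densely packed lenses of fish.

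The lens crystallins were taken as every gene whose symbol begins with cryaa, cryab, cryba, crybb, crygm, crygn or crygs, with the crybg genes left out. This gave 57 of the 38157 genes listed, namely 3 alpha, 13 beta, 35 gamma M, 2 gamma N and 4 gamma S genes. Of these, 40 reached a mean of 0.5 FPKM or more across the 6 libraries and entered the test, and 6 had 0 reads in every library. FPKM here is the number of sequenced fragments scaled by gene length and by a factor for each library, so levels can be compared between genes.

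The levels come from RNA-seq of zebrafish larvae at 3 days post fertilisation (dpf), with 3 sirt6 mutant and 3 wild-type (WT) libraries. The mutant line was made with CRISPR/Cas9, and SIRT6 is a deacylase that removes acyl groups from histones. Larvae were told apart by genotype, and poly-A RNA was sequenced from their tails, the blood-forming tissue of the tail included. The sources used here give neither the lesion nor its zygosity, nor whether the 3 libraries of a genotype came from separate pools of larvae, so a p-value measures only the spread between these libraries, which may be technical.

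Reads in genes numbered 12788974 to 14314865 in mutant libraries and 12438359 to 14655293 in WT libraries. The targeted gene, sirt6, had 3.32 ± 0.251 FPKM in mutants and 3.85 ± 1.78 FPKM in WT (SD, n = 3 each), and with the position of the lesion unknown this level checks no label. The libraries did not fall apart by genotype alone. Across the 23855 genes tested, mutant libraries 1 and 3 were the most alike (Pearson r = 0.977 on the log2 scale), followed by WT libraries 2 and 3 (r = 0.9747). The other 13 pairs had r of 0.946 to 0.964, with genes that are not independent replicates. Mutant library 2 and WT library 1 therefore stood apart from their own groups, and crystallin results that rest on them are given with and without them. For the lens, retina, forebrain and hox lists, the genes called without both are counted as well.

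The label of the tissue was set against marker genes. All 23 posterior body hox genes, which mark the trunk and tail, passed the filter on level. So did all 17 forebrain and eye field regulators and 37 of 43 listed retina photoreceptor genes. The crystallins themselves, the defining genes of lens fibres, made up 0.407% to 0.513% of reads in mutants and 0.351% to 0.533% in WT, and the highest, crygm2d13, ranked 161 of all genes by mean FPKM. Transcripts of lens, retina and forebrain were thus measured beside those of the posterior body in every library labelled tail. In bulk RNA, fewer cells of a type and less RNA per cell cannot be told apart.

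**Figure D1:**
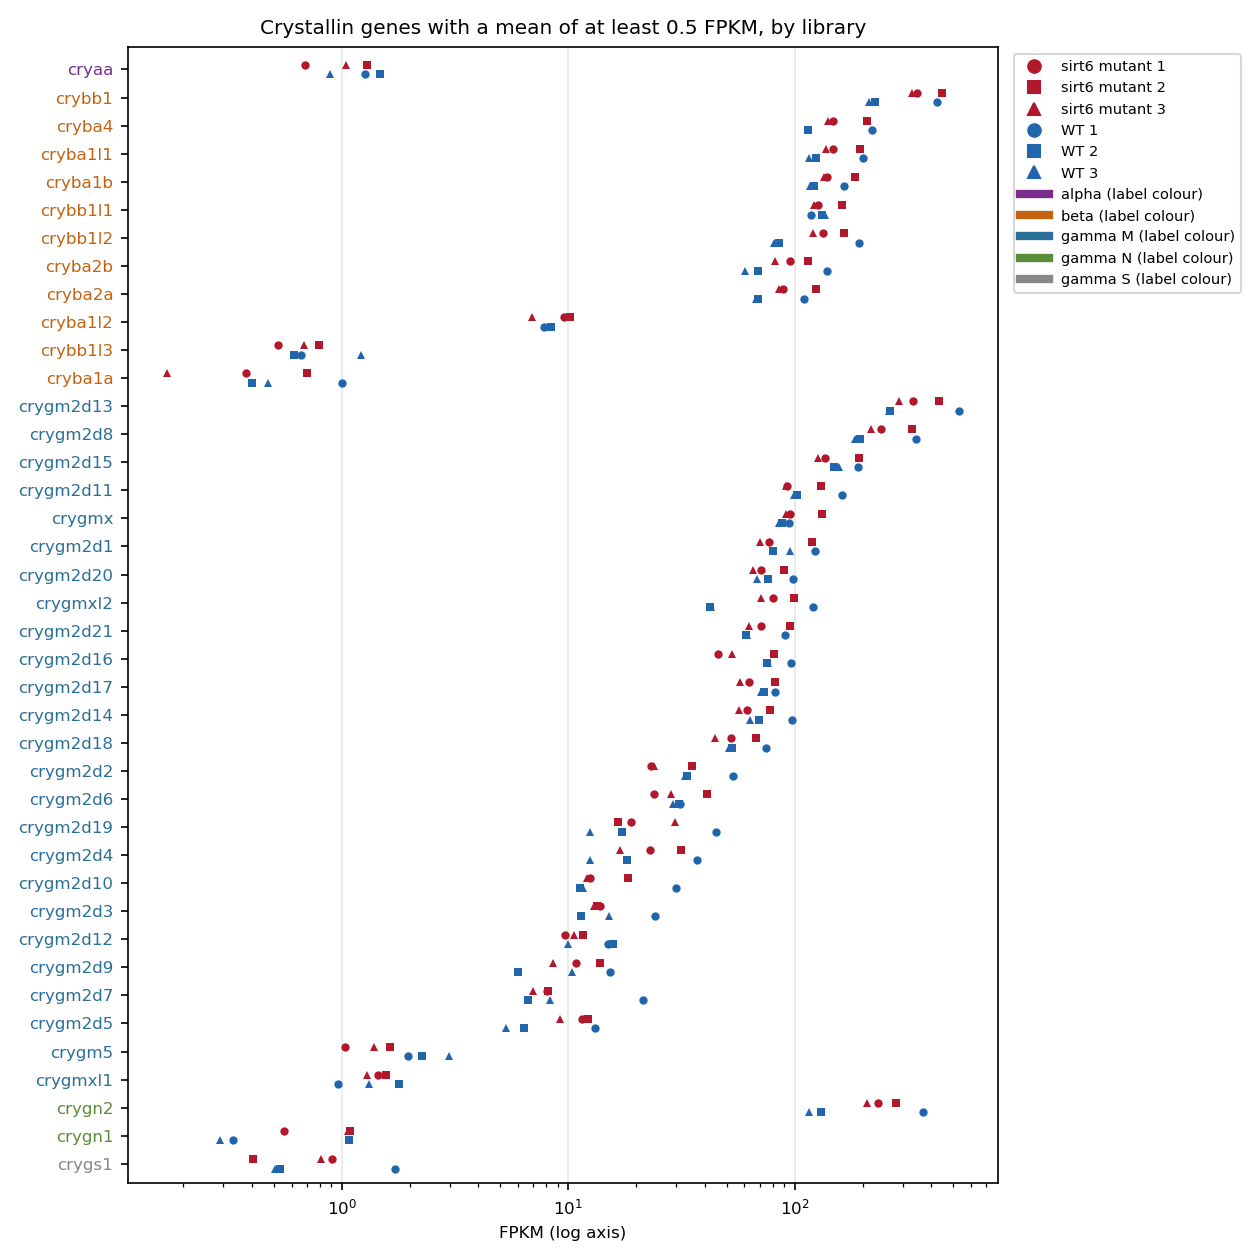
FPKM of the 40 crystallin genes that entered the test (log axis), 1 point per library, mutants in red above WT in blue, gene labels coloured by class. Beta, gamma M2d and crygn2 transcripts reach 100 FPKM and more, while cryaa and crygs1 stay below 2 FPKM; WT library 1 is the highest point for 24 of 40 genes.

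Levels differed between the classes far more than between the genotypes. Summed over all 57 genes, crystallin FPKM was 3051, 4032 and 2834 in mutant libraries 1, 2 and 3, against 4340, 2573 and 2500 in WT libraries 1, 2 and 3. Mutant library 2 and WT library 1 were high, and the genotypes overlapped. The means were 3306 ± 638 in mutants and 3138 ± 1042 in WT (SD, n = 3 each), a log2 ratio of 0.08. Only 11 genes averaged 100 FPKM or more, and the 10 highest held 63.1% of the crystallin FPKM.

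The alpha crystallins were nearly silent. The transcript of cryaa (ENSDARG00000053502, GRCz11 chr1:29096881-29100923), which encodes the chaperone alpha A, stood at 0.690, 1.29 and 1.05 FPKM in mutants and 1.26, 1.48 and 0.883 FPKM in WT, from 13 to 29 reads. Its log2 fold change was -0.18, with a limma adjusted p = 0.955 and groups that overlapped. The alpha B genes were lower still: cryabb had 2 to 9 reads per library, and cryaba had 3 reads in mutant library 3 and 0 in the others. A count of 0 allows a level of up to 0.203 to 0.235 FPKM for a gene of 1 kb, by counting error only. Alpha crystallins summed to 0.946, 1.46 and 1.25 FPKM in mutants and 1.34, 1.70 and 0.972 FPKM in WT.

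Beta crystallins gave the next largest sum after gamma M. It reached 1237, 1613 and 1162 FPKM in mutants, against 1578, 950 and 914 FPKM in WT, a log2 ratio of 0.22 between overlapping groups. Without WT library 1 the log2 ratio was 0.52, and without mutant library 2 it was 0.06. The highest beta gene was crybb1, of the basic group (ENSDARG00000068507, chr10:44021147-44027391). It had 347, 448 and 331 FPKM in mutants and 424, 226 and 212 FPKM in WT. All 3 mutants were above WT libraries 2 and 3, and WT library 1 was above mutants 1 and 3. The log2 fold change was 0.45 with an SE of 0.28, and it did not pass limma (adjusted p = 0.921).

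Several beta A and beta B genes lie side by side. Next to crybb1 on chromosome 10 is cryba4, of the acidic group, with 148, 208 and 141 FPKM in mutants and 219, 115 and 115 FPKM in WT. On chromosome 14, cryba1l1 and crybb1l1 are neighbours and behaved differently. The acidic cryba1l1 had 148, 194 and 138 FPKM in mutants and 200, 124 and 116 FPKM in WT, and so shared the high value of WT library 1. The basic crybb1l1 had 127, 162 and 122 FPKM in mutants and 118, 132 and 136 FPKM in WT. Here WT library 1 was the lowest of all 6.

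On chromosome 1, the basic crybb1l2 had 134, 165 and 121 FPKM in mutants and 192, 85.1 and 80.7 FPKM in WT. Its acidic neighbour cryba1l2 was lower, with 9.59, 10.2 and 6.92 FPKM in mutants and 7.78, 8.39 and 8.2 FPKM in WT. These 2 genes thus differ in level and in the pattern over libraries, and both overlapped between genotypes. The pair on chromosome 15, cryba1a and crybb1l3, overlap on opposite strands over 8252 bases. Both were low: cryba1a averaged 0.416 ± 0.268 FPKM in mutants and 0.626 ± 0.331 FPKM in WT, and crybb1l3 averaged 0.666 ± 0.136 FPKM in mutants and 0.830 ± 0.330 FPKM in WT (SD, n = 3 each). This overlap is of whole gene models, introns included, and the strand setting of the counting is not given. Whether these 2 genes shared reads is therefore not known.

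Of the other acidic genes, cryba1b averaged 153 ± 27.6 FPKM in mutants and 134 ± 26.3 FPKM in WT. The paralogs cryba2a and cryba2b averaged 99.3 ± 21.4 and 96.96 ± 16.6 FPKM in mutants, against 82.2 ± 24.3 and 89.3 ± 43.1 FPKM in WT (SD, n = 3 each). In none of these 3 did the genotypes separate. The basic crybb2 had 0 to 6 reads per library. For crybb3 there were 3 to 5 reads in mutants and 1 to 2 in WT, which is at the floor of 3 reads, so no fold is given.

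**Figure D2:**
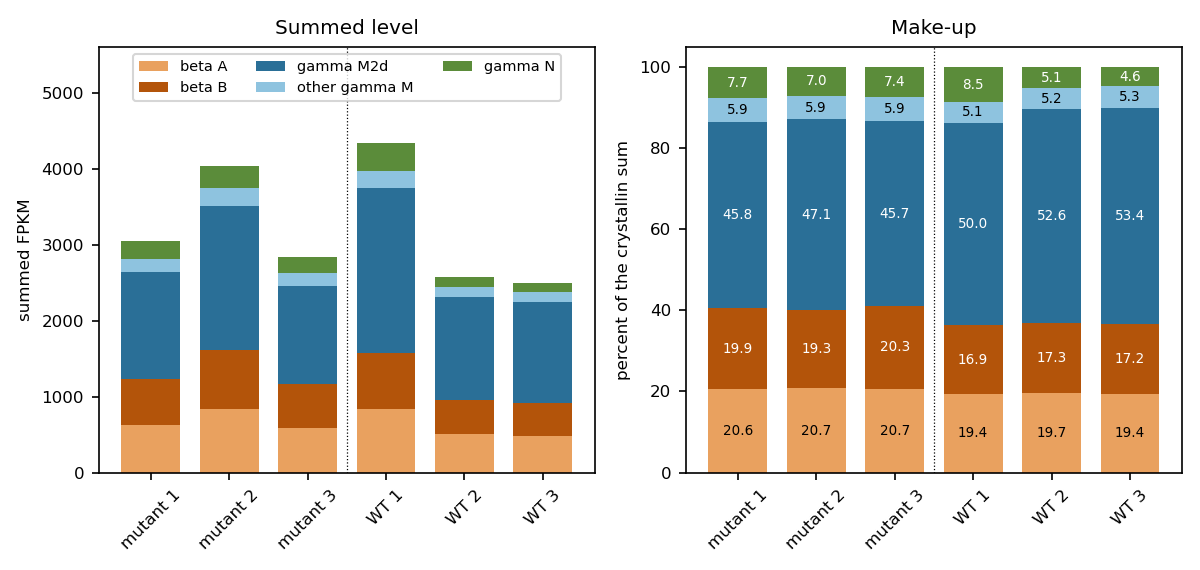
Left, summed FPKM of the crystallin classes in each library, mutants left of the dotted line and WT right of it; right, the same classes as a percent of the library's crystallin sum. The sums are highest in mutant 2 and WT 1, while beta B holds 19.3% to 20.3% in mutants and 16.9% to 17.3% in WT; alpha and gamma S are too low to be drawn.

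Gamma M crystallins were the largest class, with 1578, 2135 and 1460 FPKM in mutants and 2390, 1489 and 1468 FPKM in WT. The log2 ratio of summed FPKM, gamma M, was -0.05 between overlapping groups. It was 0.22 without WT library 1, -0.23 without mutant library 2 and 0.019 with quantile normalization. Nearly all of this came from the 21 genes named crygm2d1 to crygm2d21, called gamma M2d here. They summed to 1398, 1899 and 1294 FPKM in mutants and 2169, 1355 and 1335 FPKM in WT. The other 14 gamma M genes summed to 180, 236 and 166 FPKM in mutants and 221, 134 and 133 FPKM in WT. The division of gamma M into these sets was made after their values were seen.

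The gamma M2d genes are neighbours. A cluster of 34 gamma M and gamma S genes spans 373 kb at chr9:21993092-22366295. Gene by gene along it, the first 8 had a mean over all libraries of at most 1.88 FPKM. The next 21, all on the minus strand, were the gamma M2d genes, with means of 9.63 to 351 FPKM and no low gene among them. The last 5 were again at or below 1.88 FPKM. The 5 genes crygm1, crygm2a, crygm6, crygm7 and crygs3 of this cluster had 0 reads in every library, as had crygs2 elsewhere. The same order of high and low blocks was found in both genotypes.

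**Figure D3:**
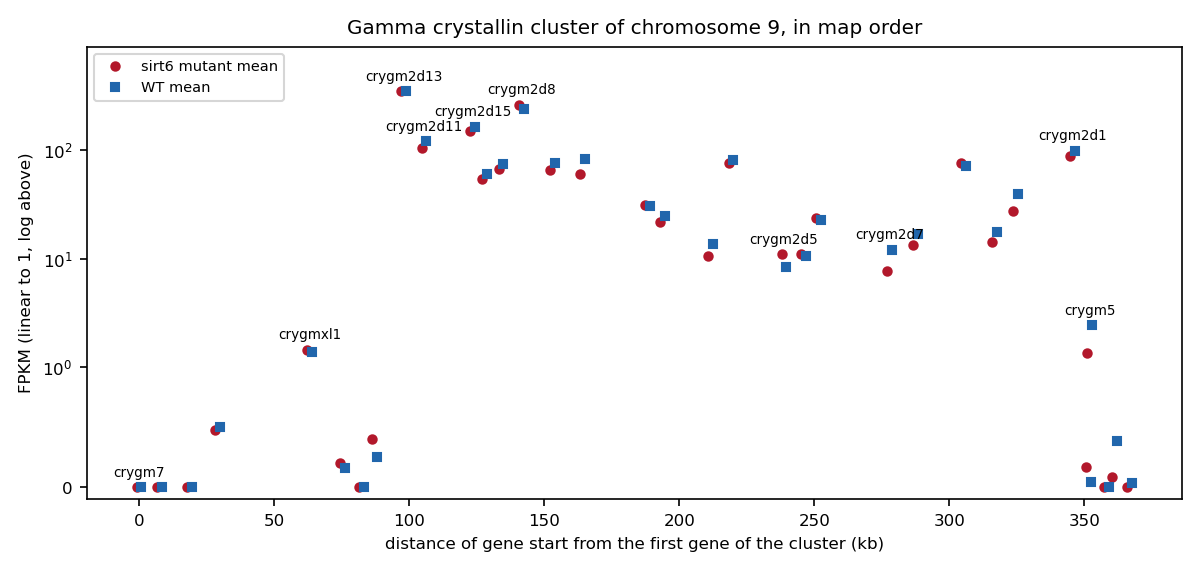
Mean FPKM of each gene of the chromosome 9 gamma cluster in mutants (circles) and WT (squares, n = 3 libraries each), against the distance of its start from that of the first gene; the marks of a gene are moved slightly apart, and the vertical axis is linear to 1 FPKM and log above. The 21 gamma M2d genes form a single high block with genotype means of 7.74 to 351 FPKM, its first gene crygm2d13 the highest, between low genes on both sides.

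Within the block, the highest gene was crygm2d13 (ENSDARG00000057460, chr9:22091161-22092089), which had 334, 432 and 289 FPKM in mutants and 529, 263 and 260 FPKM in WT. WT library 1 was far above the rest, and the group means were the same to 3 digits, 351 ± 73.3 FPKM in mutants and 351 ± 154 FPKM in WT (SD, n = 3 each). The next were crygm2d8, with 263 ± 59.8 FPKM in mutants and 240 ± 88.1 FPKM in WT, and crygm2d15, with 151 ± 35.5 FPKM in mutants and 165 ± 22.1 FPKM in WT. Lower down, crygm2d5 had 11.4, 12.3 and 9.19 FPKM in mutants and 13.1, 6.41 and 5.32 FPKM in WT. Its log2 fold change of 0.48 was the highest of any crystallin tested, and the groups overlapped through WT library 1.

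The lowest fold changes among gamma M2d were those of crygm2d2 and crygm2d16. For crygm2d2 the values were 23.1, 35.0 and 24.0 FPKM in mutants and 53.2, 33.4 and 32.7 FPKM in WT, a log2 fold change of -0.52 (limma adjusted p = 0.868). For crygm2d16 they were 46.1, 81.4 and 52.8 FPKM in mutants and 96.6, 75.2 and 76.2 FPKM in WT, a log2 fold change of -0.49 (limma adjusted p = 0.868). In both genes mutants 1 and 3 were below every WT library and mutant 2 was not. The gene model of crygm2d16 lies within that of crygm2d14 on the same strand, over 1044 bases. The gamma M2d genes are close copies, and how the counting treated reads that match several of them is not given, so levels of single copies are less certain than their sum.

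Outside the block, crygmx and crygmxl2 were the only other gamma M genes above 2 FPKM in both groups' means, and they are neighbours on chromosome 12. Levels of crygmx were 95.3, 132 and 91.3 FPKM in mutants and 94.6, 87.9 and 85.5 FPKM in WT. For crygmxl2 they were 80.6, 99.5 and 71.3 FPKM in mutants and 121, 42.1 and 42.5 FPKM in WT, so WT library 1 was high for crygmxl2 and not for its neighbour. The log2 fold changes were 0.23 and 0.46, and neither passed. Their relative crygmxl1, on chromosome 9, averaged 1.44 ± 0.139 FPKM in mutants and 1.36 ± 0.415 FPKM in WT (SD, n = 3 each).

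At the far end of the chromosome 9 cluster, crygm5 (ENSDARG00000041179, chr9:22345047-22352280) had 1.03, 1.63 and 1.39 FPKM in mutants and 1.97, 2.27 and 2.99 FPKM in WT. Every mutant was below every WT library, which held for no other crystallin tested. The log2 fold change was -0.65 with an SE of 0.22, from 18 to 29 reads in mutants and 36 to 50 in WT, and limma gave an adjusted p = 0.785. Its gene model overlaps that of crygm2f on the same strand over 454 bases and that of crygs3 on the other strand over 838 bases. These partners were at or near 0 reads.

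The gamma N class consists of crygn1 and crygn2, which are related to both beta and gamma crystallins in sequence. The transcript of crygn2 (ENSDARG00000030411, chr24:41305391-41312459) was among the highest crystallins, with 234, 281 and 208 FPKM in mutants and 369, 130 and 116 FPKM in WT. Mutants lay between WT library 1 and WT libraries 2 and 3, so the mean was 241 ± 36.8 FPKM in mutants and 205 ± 142 FPKM in WT (SD, n = 3 each). The log2 ratio of the gamma N sum was 0.23. With single libraries left out it ran from -0.050 to 0.97, the highest without WT library 1. The other gene, crygn1, averaged 0.902 ± 0.299 FPKM in mutants and 0.564 ± 0.440 FPKM in WT, from 4 to 17 reads. The gamma S class, known in mammals from the outer lens, was nearly silent, with crygs1 at 0.705 ± 0.263 FPKM in mutants and 0.917 ± 0.689 FPKM in WT (SD, n = 3 each) and at most 1 read of crygs4.

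Tested between genotypes over all genes, none of the 40 crystallins passed limma at an adjusted p of 0.05, and none of the 23855 genes did, a background of 0% in either direction. At an unadjusted p under 0.05 there was 1 crystallin, crygm5, against 5.73% of all genes, and limma voom on the recovered reads also called 0 genes. Crystallin means were higher in mutants for 21 genes and lower for 19, with a median log2 fold change of 0.04, against 0.00 over all genes. In 0 of 40 crystallins were all mutants above all WT libraries, against 5.16% of all genes. In 1 of 40, crygm5, all mutants were below, against 5.4% of all genes. The share of crystallins that separated the genotypes was therefore not above the background. Under other scalings 1 crystallin was higher and 2 were lower by limma voom, against 6.14% and 5.03% of all genes, and 4 were higher and 3 lower with quantile normalization, against 5.94% and 5.45%. With no filter 1 was higher, against 4.77%, and at a mean of at least 5 FPKM 0 were lower, against 5.19%.

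By class, 9 of 11 beta genes had a higher mean in mutants on the log scale, with a median log2 fold change of 0.19. Of 25 gamma M genes 10 were higher and 15 lower, with a median of -0.13, and within it gamma M2d had 7 higher and 14 lower and a median of -0.15. Both gamma N genes were higher, with a median of 0.44. These medians are a description of the 6 libraries and carry no test.

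**Figure D4:**
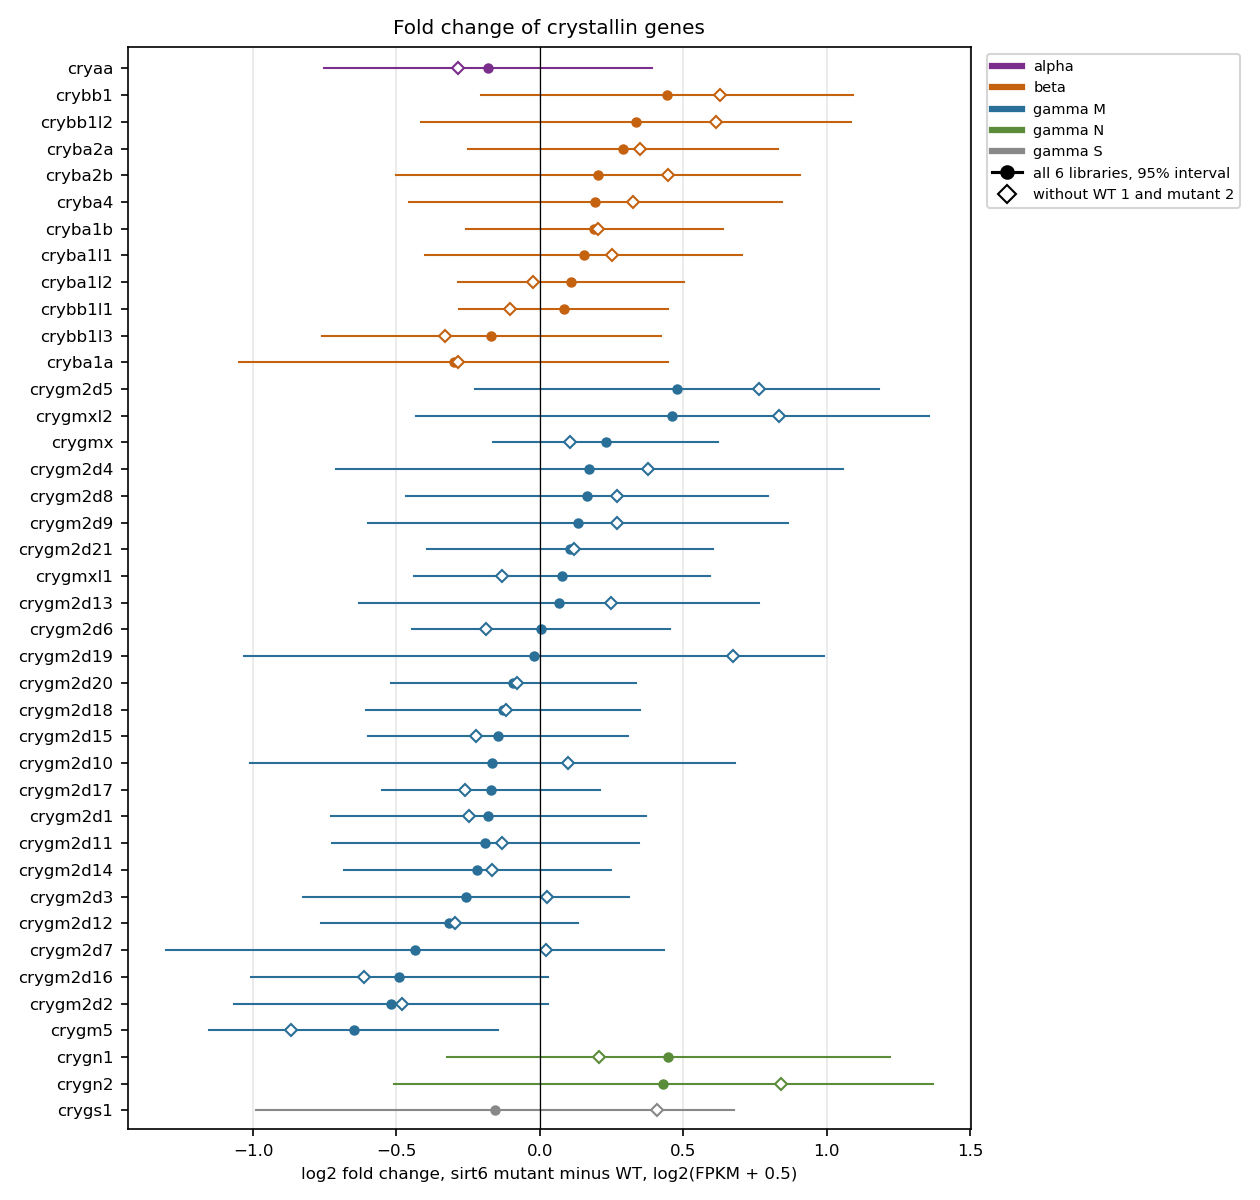
Log2 fold change of each tested crystallin, mutant minus WT, on the log2(FPKM + 0.5) scale, by class; filled circles with bars are the estimate from all 6 libraries with its 95% interval, and open diamonds the estimate without WT 1 and mutant 2. Only the bar of crygm5 (-0.65) lies clear of 0, and the diamonds of crybb1 (0.63) and crygn2 (0.84) lie further from 0 than their circles.

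The libraries that stood apart set much of the spread. WT library 1 held the highest value for 24 of the 40 crystallins and mutant library 2 for 11. FPKM summed over all genes was also highest there, at 543739 in WT library 1 and 520153 in mutant library 2. The other WT libraries had 462229 and 456617, and the other mutants 440673 and 425828. Crystallins made up 0.666% to 0.775% of all FPKM in mutants and 0.548% to 0.798% in WT. Among the 30 genes that averaged 10 FPKM or more, WT library 1 exceeded the mean of the other WT libraries by a median factor of 1.61, with 0.880 for crybb1l1 and 3.01 for crygm2d19 as extremes. Mutant library 2 exceeded the other mutants by a median factor of 1.39, with 0.686 for crygm2d19 and 1.65 for crygm2d16 as extremes. Over these 30 genes, which share the libraries, either factor had little relation to gene length (r = -0.10 for WT library 1 and -0.14 for mutant library 2, on log2 scales). Genes of at most 1000 bases deviated on the log2 scale by 0.03 in mutant library 2 and 0.19 in WT library 1, against -0.06 and -0.02 in the other mutants and -0.05 and -0.04 in the other WT libraries. The crystallins are short, with a median length of 1042 bases among those tested against 2286 over all genes.

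Without both of these libraries, limma called 16 crystallins. The 11 called higher were cryba1b, cryba1l1, cryba2a, cryba2b, cryba4, crybb1, crybb1l2, crygm2d5, crygm2d8, crygmxl2 and crygn2, against 9.15% of all genes called higher. The 5 called lower were crygm2d2, crygm2d15, crygm2d16, crygm2d17 and crygm5, against 9.42% of all genes. Examples of the log2 fold change in this fit are 0.63 for crybb1 (limma adjusted p = 0.00707), 0.84 for crygn2 (0.00765), 0.83 for crygmxl2 (0.00701) and -0.61 for crygm2d16 (0.0105). Over the alternatives, the adjusted p of each of these 4 genes ran from the value given up to 1. The libraries left are the 2 closest pairs of the series, 1 of each genotype, so genotype and pair cannot be told apart. In the same 4 libraries, 17 of 40 crystallins were higher in both mutants and 11 lower, against 33.1% and 31.1% of all genes. Leaving out WT library 1 alone gave 15 of 40 higher without overlap, against 18.5% of all genes, and leaving out mutant library 2 alone gave 10 of 40 lower, against 15.3%. With libraries weighted by quality, limma called 5 crystallins higher and 3 lower, against 9.62% and 10.7% of all genes. The weights were 0.223 for WT library 1 and 0.263 for mutant library 2, against 1.36 to 3.88 for the others. This fit therefore rests mainly on the same 4 libraries and has the same limit.

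The shares of beta and gamma M2d in the crystallin pool varied less between libraries of a genotype than the size of the pool. Beta crystallins held 40.5%, 40.0% and 41.0% of crystallin FPKM in mutants, against 36.3%, 36.9% and 36.6% in WT. Gamma M2d held 45.8%, 47.1% and 45.7% in mutants, against 49.97%, 52.6% and 53.4% in WT. Gamma M as a whole held 51.7%, 53.0% and 51.5% in mutants, against 55.1%, 57.9% and 58.7% in WT. In each of these the genotypes did not overlap, and this held for the libraries that stood apart as well. The differences in means were 3.90 percentage points for beta, -5.15 for gamma M and -5.81 for gamma M2d. These shares were computed after the data were seen, sum to 100% with the other classes, and carry no test.

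The higher beta share was found in both beta groups. Beta B held 19.9%, 19.3% and 20.3% in mutants and 16.9%, 17.3% and 17.2% in WT, and beta A 20.6%, 20.7% and 20.7% in mutants and 19.4%, 19.7% and 19.4% in WT. Most of the beta B difference lay in crybb1, with a mean share of 11.4% in mutants and 9.02% in WT. For crybb1l2 the mean shares were 4.24% and 3.65%, and the genotypes overlapped. The mean shares of crybb1l1, 4.16% and 4.43%, and of the low crybb1l3 went the other way, with overlap. The gamma M genes outside gamma M2d held 5.91%, 5.86% and 5.87% in mutants and 5.10%, 5.22% and 5.34% in WT. Nearly all of this lay in crygmx and crygmxl2, and the share of each alone overlapped between genotypes. For crygmx it was 3.12%, 3.27% and 3.22% in mutants and 2.18%, 3.42% and 3.42% in WT. For crygmxl2 it was 2.64%, 2.47% and 2.51% in mutants and 2.79%, 1.64% and 1.70% in WT. For gamma N the shares overlapped, with 7.68%, 6.99% and 7.39% in mutants and 8.51%, 5.11% and 4.65% in WT. Of these classes, gamma M2d had a share in every mutant library below that in every WT library, and both beta groups and the remaining gamma M genes had one above.

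As a ratio, gamma M2d over beta was 1.13, 1.18 and 1.11 in mutants and 1.37, 1.43 and 1.46 in WT. Gamma M2d over the other gamma M genes was 7.76 to 8.04 in mutants and 9.79 to 10.1 in WT. By contrast, the other gamma M genes over beta gave 0.146, 0.147 and 0.143 in mutants and 0.140, 0.141 and 0.146 in WT, which overlapped. Between single genes, crygm2d13 over crybb1 was 0.962, 0.964 and 0.872 in mutants and 1.25, 1.16 and 1.23 in WT. The gamma M2d genes are shorter, with a median of 938 bases, than the beta genes, with 1859. After a length trend was removed in each library, beta held 40.4%, 40.1% and 40.5% in mutants and 37.9%, 36.5% and 36.1% in WT. Gamma M2d then held 45.9%, 47.2% and 46.0% in mutants and 48.6%, 53.1% and 53.7% in WT. The genotypes did not overlap in either share, but their nearest libraries lay closer than without this step. For gamma M2d the nearest were at 47.2% and 48.6%, against 47.1% and 49.97% without it. For beta they were at 40.1% and 37.9%, against 40.0% and 36.9%. With the length trend removed, 1 crystallin was higher and 3 were lower without overlap, against 5.26% and 6.36% of all genes. Neither the counting of reads shared by gamma M2d copies nor the part of gene length in the shares was tested.

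Gene by gene, shares of the crystallin sum separated the genotypes for 8 of the 40. The 3 with a higher share in every mutant were crybb1, cryba2a and crygm2d5, where 2.13% of all genes scaled in the same way were higher. The gene models of crybb1 and cryba2a overlap others on the opposite strand, CR384089.1 over 3505 bases and tmem198b over 3430 bases. With introns included in these spans and no strand setting given, whether such pairs shared reads is not known. The 5 with a lower share were crygm2d2, crygm2d11, crygm2d14, crygm2d16 and crygm2d18, all gamma M2d, where 3.62% of all genes were lower. Crystallins form the sum used for this scaling and other genes do not, so these percentages are not a like background. Without the scaling, 5.16% of all genes were higher and 5.4% lower. For crybb1 the share was 11.4 ± 0.284% in mutants and 9.02 ± 0.678% in WT. For crygm2d11 it was 3.16 ± 0.119% in mutants and 3.89 ± 0.149% in WT, and for crygm2d2 0.824 ± 0.0588% in mutants and 1.28 ± 0.0453% in WT (SD, n = 3 each). Among gamma M2d genes, the mean share was higher in mutants for crygm2d4, crygm2d5 and crygm2d8, and crygm2d5 alone did not overlap, with 0.335 ± 0.0364% in mutants and 0.255 ± 0.0450% in WT.

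Other lens genes were read in the same fit, and none was called. Of 16 lens fibre genes besides crystallins and the widely expressed matrix gene sparc, 13 had a higher mean in mutants and 3 a lower, with a median log2 fold change of 0.14. The sum over all 20 listed genes of this kind, untested ones included, was 107 to 133 FPKM in mutants and 94.5 to 122 FPKM in WT. Among them, bfsp2, a subunit of the beaded filament of lens fibres, averaged 19.4 ± 2.16 FPKM in mutants and 16.8 ± 4.64 FPKM in WT, and mipb, a lens aquaporin, 35.1 ± 2.61 FPKM in mutants and 32.5 ± 5.0 FPKM in WT. The connexin gene gja8b had 2.92 ± 0.265 FPKM in mutants and 2.23 ± 0.251 FPKM in WT (SD, n = 3 each). It was the only 1 of the 16 tested in which all mutants were above all WT libraries, against 5.16% of all genes. The apoptosis inhibitor birc7 averaged 2.60 ± 0.282 FPKM in mutants and 1.70 ± 0.811 FPKM in WT, and sparc 310 ± 47.3 FPKM in mutants and 304 ± 46.9 FPKM in WT. The connexin gene gja3 was at 0 reads.

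Of 14 transcription factor genes with roles in the lens, 10 had a higher mean in mutants and 4 a lower, with a median of 0.19, and in 4 all mutants were above all WT libraries, against 5.16% of all genes. The lens regulators pitx3 and foxe3 were among these 4, at 5.16 ± 0.357 and 0.879 ± 0.176 FPKM in mutants, against 3.99 ± 0.155 and 0.465 ± 0.109 FPKM in WT. So was mafba, with 14.2 ± 0.695 FPKM in mutants and 12.0 ± 1.02 FPKM in WT. The eye regulator pax6a was level, with 14.4 ± 0.670 FPKM in mutants and 14.6 ± 0.949 FPKM in WT, and prox1a had 12.2 ± 2.47 FPKM in mutants and 10.3 ± 0.333 FPKM in WT (SD, n = 3 each). The adjusted p of the list was at least 0.867 by limma.

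Retina and forebrain genes stand beside the crystallins as markers of other head tissue. The 43 listed photoreceptor genes summed to 2634 to 3242 FPKM in mutants and 2177 to 2779 FPKM in WT. Of the 37 tested, 23 had a higher mean in mutants and 14 a lower, with a median log2 fold change of 0.07. In 11 all mutants were above all WT libraries, against the 5.16% of all genes given above, and in none were all below. The rod opsin gene rho had 859, 910 and 778 FPKM in mutants and 568, 320 and 285 FPKM in WT. The rod arrestin gene saga averaged 14.8 ± 0.544 FPKM in mutants and 6.09 ± 0.209 FPKM in WT, with the smallest adjusted p of the list (limma, 0.128), and the rod disc gene rom1b 11.8 ± 2.17 FPKM in mutants and 5.89 ± 0.588 FPKM in WT. Of cone genes, arr3a, a cone arrestin chosen after its values were seen, was also among the 11, with 113, 139 and 111 FPKM in mutants and 98.2, 99.2 and 93.9 FPKM in WT. Both cone genes named by rule overlapped between genotypes: opn1sw1, an ultraviolet cone opsin, averaged 560 ± 63.4 FPKM in mutants and 585 ± 9.39 FPKM in WT, and gngt2b, a cone transducin subunit, 244 ± 57.8 FPKM in mutants and 258 ± 201 FPKM in WT (SD, n = 3 each).

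The 17 forebrain and eye field regulators summed to 115 to 131 FPKM in mutants and 101 to 117 FPKM in WT, with 12 means higher and 5 lower, a median of 0.09 and 6 genes in which all mutants were above all WT libraries, against 5.16% of all genes. The genes six3a and six3b are also in the lens transcription factor list, and six3b counts among the genes without overlap in both lists. Examples are rx2, a retinal homeobox gene, with 3.46 ± 0.427 FPKM in mutants and 2.13 ± 0.239 FPKM in WT, and otx5, a homeobox gene of photoreceptors and the pineal organ, with 20.9 ± 2.33 FPKM in mutants and 15.5 ± 1.69 FPKM in WT. From the same list, otx2b and dlx5a averaged 14.5 ± 2.2 and 14.2 ± 2.12 FPKM in mutants, against 11.9 ± 1.38 and 15.3 ± 2.1 FPKM in WT. Of the 23 posterior hox genes, 22 had a lower mean in mutants and 1 a higher, with a median of -0.23 and 5 genes in which all mutants were below all WT libraries, against 5.4% of all genes. Their sum was 157 to 193 FPKM in mutants and 194 to 202 FPKM in WT. The groups did not overlap, but only narrowly, with 193.3 FPKM in mutant library 2 and 194.4 FPKM in WT library 3. Among those 5, hoxc10a averaged 3.28 ± 0.395 FPKM in mutants and 4.60 ± 0.304 FPKM in WT, and hoxc13b averaged 0.887 ± 0.0532 FPKM in mutants and 1.37 ± 0.0929 FPKM in WT (SD, n = 3 each). The 3 highest, hoxc12a, hoxb9a and hoxc9a, averaged 21.2 ± 2.37, 16.2 ± 2.29 and 13.0 ± 1.75 FPKM in mutants, against 22.7 ± 4.77, 19.2 ± 3.69 and 15.7 ± 1.21 FPKM in WT. No gene of either list passed limma with all 6 libraries. Without WT library 1 and mutant library 2, limma called 12 photoreceptor genes higher and 6 lower, against 9.15% and 9.42% of all genes. It also called 2 forebrain and eye field regulators, 2 lens fibre genes and 1 lens transcription factor higher, and 6 hox genes lower. In that fit genotype and pair of libraries cannot be told apart.

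**Figure D5:**
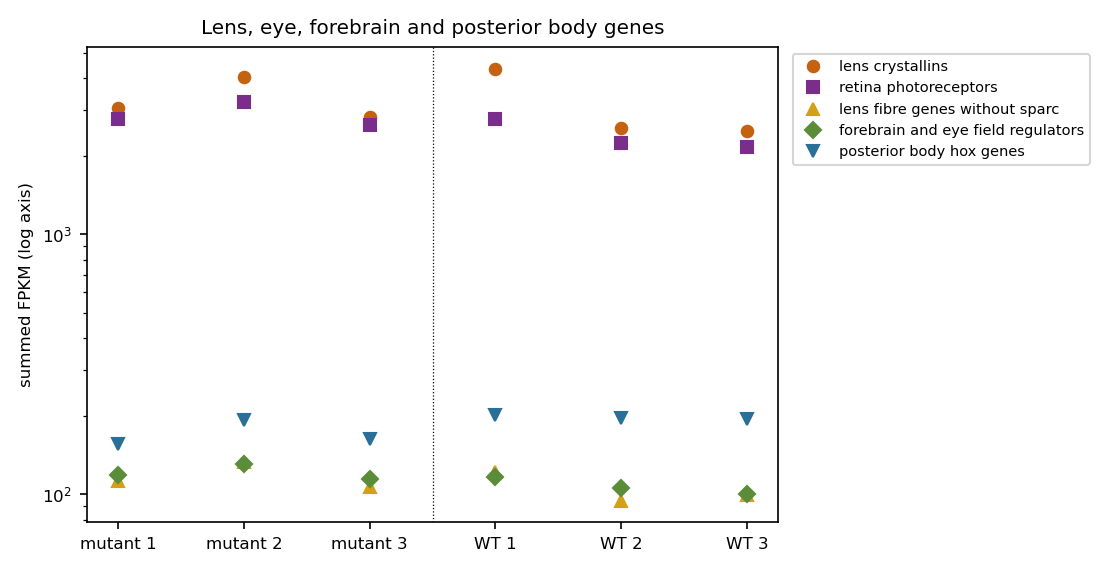
Summed FPKM (log axis) of the crystallins and of 4 marker lists in each library, mutants left of the dotted line and WT right of it. Crystallin and photoreceptor sums are of like size. Each sum drawn, that of the posterior hox genes included, is highest within its genotype in mutant 2 and WT 1. The hox sum is 157 to 193 FPKM in mutants and 194 to 202 FPKM in WT.

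Set against these lists, the crystallin sum over the photoreceptor sum was 1.1, 1.24 and 1.08 in mutants and 1.56, 1.15 and 1.15 in WT. The crystallin sum over the lens fibre sum was 27.1, 30.3 and 26.6 in mutants and 35.7, 27.2 and 25.1 in WT. WT library 1 had the highest ratio in each case, and the groups overlapped. The part of the head genes and of the posterior hox genes in the crystallin levels was not tested. The ratio of gamma M2d to beta did not overlap between genotypes, and the part of the head genes in it was not tested either.

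The alpha crystallins belong to the small heat shock proteins, and the other members of that family served as a comparison. Of 8 tested, 4 had a higher mean in mutants and 4 a lower, with a median of -0.02 and no separation of the genotypes. The muscle and stress chaperone hspb1 averaged 22.0 ± 1.82 FPKM in mutants and 19.5 ± 8.25 FPKM in WT, and hspb8 3.10 ± 0.425 FPKM in mutants and 4.17 ± 0.751 FPKM in WT. Levels of hspb6 and hspb11 were 25.7 ± 3.11 and 22.7 ± 4.17 FPKM in mutants, against 29.2 ± 3.98 and 27.6 ± 5.62 FPKM in WT (SD, n = 3 each). Each of these 4 had a higher mean than cryaa. Others of the family were near it, with hspb2 at 1.28 ± 0.50 FPKM in mutants and 1.27 ± 0.589 FPKM in WT, and hspb3 at 0.744 ± 0.419 FPKM in mutants and 0.534 ± 0.321 FPKM in WT.

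Of 21 heat shock response genes, 9 had a higher mean and 12 a lower, with a median of -0.05. Of these, 1 was above and 2 were below without overlap, against 5.16% and 5.4% of all genes. The cytosolic chaperone genes hspa8 and hsp90ab1 averaged 22.7 ± 2.45 and 593 ± 62.2 FPKM in mutants, against 17.04 ± 1.67 and 554 ± 4.98 FPKM in WT. The inducible hsp70.1 averaged 4.41 ± 0.887 FPKM in mutants and 6.54 ± 2.0 FPKM in WT. Levels of hspa5, of the endoplasmic reticulum, and of mitochondrial hspd1 were 200 ± 16.6 and 101 ± 12.1 FPKM in mutants, against 162 ± 56.2 and 98.4 ± 24.4 FPKM in WT (SD, n = 3 each). A last list held genes with a crystallin name or a name like it that are not lens proteins of these classes. Of its 6 tested genes, 5 had a lower mean in mutants, and 1, crim1, a membrane protein that is not related to crystallins, a higher, with a median of -0.08. For crim1 the level was 3.30 ± 1.51 FPKM in mutants and 2.72 ± 0.331 FPKM in WT. The other genes include cryz, a quinone oxidoreductase, with 3.23 ± 0.294 FPKM in mutants and 4.01 ± 0.193 FPKM in WT. Its relative cryzl1 and crym averaged 6.24 ± 0.918 and 1.87 ± 0.829 FPKM in mutants, against 6.40 ± 0.262 and 2.13 ± 0.526 FPKM in WT. The genes crybg1a and crybg1b averaged 9.02 ± 1.25 and 4.54 ± 1.08 FPKM in mutants, against 9.37 ± 1.16 and 4.88 ± 0.612 FPKM in WT (SD, n = 3 each). None of these genes passed limma.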

How the data were processed

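The authors deposited FPKM values per gene for the 6 libraries, with gene length and position. The tools listed, per the submitters' processing notes, are HISAT2 2.0.5, featureCounts, DESeq2 and FastQC, with the GRCz11 build. The sources used here give no annotation release, strand setting or rule for reads that match several genes. Multiplied by gene length, 100% of the deposited FPKM values were whole multiples of 1 unit per library (tolerance 1e-06), which gave reads per gene. A median-of-ratios factor computed from the FPKM values was 1.008 in every library, so that scaling differs from the deposited one by a constant.

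Values of log2(FPKM + 0.5) were fitted with limma 3.58.1 (R 4.3.3) and a variance trend, for the 23855 genes that averaged 0.5 FPKM or more. P-values are two-sided and Benjamini-Hochberg adjusted over all these genes (threshold 0.05). Fold changes are mutant minus WT on this scale and are understated for low genes. An exact permutation test of 3 against 3 libraries cannot go below p = 0.1, so none is given. The fit was tested on simulated data in which each library varied independently for each gene. Those data lack the deviations shared across genes in WT library 1 and mutant library 2. They therefore do not show how many changes the fit missed here. The design, members, gene lists and tests were chosen with earlier results of these data known. The symbol crygm2d17 occurs on 2 rows, and 1 of them (ENSDARG00000109861) was named crygm2d19 from a table of gene names that matched all 57 IDs. Named crystallins were all alpha, beta, gamma N and gamma S genes, and gamma M genes by level (8 highest, 3 lowest tested) and fold change (3 highest, 3 lowest). From each other list came the 3 highest genes and the 2 of smallest p. Genes singled out for their shares or for absent reads, and members called in an alternative, were named after their values were seen. So were hspb2, hspb3 and crim1, which the rule for the other lists does not name. Sums, shares and ratios carry no test. Alternatives changed the pseudocount, filter, scaling, variance model, weights, block, gene length and libraries used.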

Additional observations from a re-analysis of the deposited data

How the results depend on the processing

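Of 19 alternatives to the limma fit, 17 called 0 crystallins. Library weights, lowest for WT library 1 and mutant library 2, called 5 higher and 3 lower (2295 and 2554 genes over all). Leaving out WT library 1 with mutant library 2 called 11 and 5 (2183 and 2246 over all). A filter at 5 FPKM called 2 genes higher over all, and quantile normalization 1 higher and 1 lower, none of them crystallins. Crystallins that did not overlap between genotypes numbered 1 higher and 3 lower after adjusting for gene length (added after seeing the data), 1 and 2 by limma voom, 4 and 3 with quantile normalization, 1 higher with no filter, 0 lower at 5 FPKM, and 17 higher and 11 lower without that pair of libraries. Leaving out single libraries gave 0 to 15 higher and 1 to 10 lower, with 0 crystallins called each time. The log2 ratio of summed FPKM ran over single libraries left out from -0.09 to 0.38 for all crystallins, 0.06 to 0.52 for beta, -0.23 to 0.22 for gamma M, -0.27 to 0.19 for gamma M2d and -0.050 to 0.97 for gamma N. The sign of the total turned without mutant library 2, WT library 2 or WT library 3, that of gamma M without WT library 1, mutant library 1 or mutant library 3, without the pair (0.039) and with quantile normalization (0.019), that of gamma M2d without WT library 1, mutant library 3 or the pair (0.0015), and that of gamma N without WT library 2 or WT library 3. Differences in share held their sign throughout, from 3.65 to 4.15 percentage points for beta, -6.22 to -4.40 for gamma M, -6.82 to -5.12 for gamma M2d and 0.55 to 2.48 for gamma N with single libraries left out; without the pair they were -6.67 for gamma M and -7.28 for gamma M2d. The causes were not tested. Of 28 tested crystallins named by the rule, 10 changed sign and 15 were called in at least 1 alternative, and of 38 genes of the other lists named by it, 9 and 22. The like share over all genes was not counted, but the fit without the pair called 18.6% of them and library weights 20.3%. Some of the named genes were chosen by fold change or by smallest p, so these counts do not describe the lists.

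Mutants and WT share replicate numbers. Deviations from the group means of same-numbered libraries correlated at 0.05, 0.01 and 0.11, so the numbers were not taken as pairs. With a replicate block, 0 crystallins and 0 genes were called (smallest adjusted p = 0.282), and 0 crystallins were higher and 1 lower without overlap. The log2 ratio by replicate number was 0.11 for all crystallins, 0.25 for beta, -0.03 for gamma M and 0.43 for gamma N. These are means of the log2 ratios of same-numbered libraries. The values given earlier are log2 ratios of group means, so the difference between them is not an effect of the block.

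Depth limits the low genes: each alpha and gamma S gene and crygn1 had fewer than 30 reads per library.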

Other observations

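The gene crybgx, a crystallin relative outside the classes above and chosen after its values were seen, had 1.84, 1.2 and 1.75 FPKM in mutants and 15.6, 0.394 and 0.959 FPKM in WT. WT library 1 held 160 of its reads, against 12 to 19 reads in mutants and 4 to 9 in the other WT libraries. Its log2 fold change was -0.41, with a limma adjusted p = 0.971.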
